A study of Homo sapiens with 8 samples.

Results

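The receptors of fibroblast growth factors (FGFs), their relative FGFRL1, the coreceptor KLB and the hormones FGF19 and FGF21 were examined in HepG2 cells, a human hepatocarcinoma cell line, exposed to inhibitors of EZH1 and EZH2. The 8 genes were taken by symbol (FGF19, FGF21, FGFR1, FGFR2, FGFR3, FGFR4, FGFRL1 and KLB), and 7 of them had values among the 25603 genes of the series. FGF21 was not analysed here. Treated cells (EZHi) received UNC1999 and valemetostat tosylate together, each at 1 µM, for 4 days, and control cells (vehicle) received DMSO, at 0.2% per the labels. Both groups were grown on gelatin in William's E medium with serum, insulin and dexamethasone. There were 4 libraries per group, each sequenced as paired reads of 150 bp, and they represent a single cell line in which both inhibitors were always combined, so the effect of each compound cannot be told apart.

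FGFs signal through receptor tyrosine kinases at the cell surface, FGFR1 to FGFR4, while FGFRL1 binds FGFs but lacks the kinase domain. FGF19 and FGF21 are hormones that bind heparan sulfate weakly and therefore need KLB (beta-klotho), a single-pass membrane protein, to engage a receptor. In hepatocytes the FGF19 signal passes mainly through FGFR4 with KLB and lowers bile acid synthesis by repressing CYP7A1, whereas FGF21, which the liver secretes during fasting and amino acid stress, acts best through FGFR1 with KLB. The polycomb repressive complex 2, whose catalytic subunit is EZH1 or EZH2, methylates histone H3 on lysine 27 at repressed genes, many of them with promoters rich in CG dinucleotides.

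Levels are length-corrected log2 values, and where stated they were converted to an estimated FPKM, fragments per kilobase of transcript scaled to library size. A gene was called when its limma p, adjusted over the 20153 genes whose mean estimated FPKM reached 0.1, was under 0.05. By this rule 8.85% of all tested genes were called higher and 4.27% lower in EZHi. Read depth is unknown. The transcripts of EZH1, EZH2, EED and SUZ12, which encode the targets and their partners, had log2 differences between -0.11 and -0.06, and 0 of the 4 were called by limma, with 0 at an unadjusted p under 0.05. The libraries had values for all 9 hepatocyte markers, whose summed estimated FPKM ranged from 24077 to 46998 in vehicle and from 26537 to 43126 in EZHi. Among markers of other cell types, 4 of 5 cholangiocyte genes had values (499 to 814 in vehicle, 616 to 855 in EZHi), as had 4 of 6 fibroblast and stellate genes (32.8 to 42.1, and 41.9 to 46.9), 3 of 4 endothelial genes (2.26 to 2.72, and 3.42 to 7.21) and 2 of 4 leukocyte genes (0.423 to 0.507, and 0.434 to 0.549). COL1A2 and DCN of the fibroblast genes and KDR of the endothelial genes were not analysed here. The endothelial sum did not overlap between groups, and CDH5 and VWF of that list were called higher by limma (log2 fold changes of 2.28 and 1.45, adjusted p 0.00411 and 0.00537). PECAM1, the other tested gene of that list, overlapped between groups and was not called (log2 fold change 0.042, limma adjusted p = 0.867). In bulk libraries of this cell line, a marker transcribed in more HepG2 cells and more of its RNA per cell cannot be told apart.

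Promoter sequences are shown for FGFR2, FGFR3 and KLB. They were chosen because they span the range of CG content at the first RefSeq start of the genes with values whose promoters were examined. They cover the 250 bases before the RefSeq start of each gene (GRCh38.p14) and are printed 5′ to 3′ on the gene's strand with every CG dinucleotide in capitals. The FGFR2 window lies at chr10:121598445-121598694 on the minus strand, the FGFR3 window at chr4:1793043-1793292 on the plus strand and the KLB window at chr4:39406680-39406929 on the plus strand.
FGFR2: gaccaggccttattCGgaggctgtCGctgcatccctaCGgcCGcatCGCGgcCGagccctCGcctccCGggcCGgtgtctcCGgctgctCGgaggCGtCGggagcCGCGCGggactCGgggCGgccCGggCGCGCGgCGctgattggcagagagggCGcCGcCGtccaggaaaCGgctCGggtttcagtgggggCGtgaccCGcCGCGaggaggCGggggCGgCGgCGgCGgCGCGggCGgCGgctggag
FGFR3: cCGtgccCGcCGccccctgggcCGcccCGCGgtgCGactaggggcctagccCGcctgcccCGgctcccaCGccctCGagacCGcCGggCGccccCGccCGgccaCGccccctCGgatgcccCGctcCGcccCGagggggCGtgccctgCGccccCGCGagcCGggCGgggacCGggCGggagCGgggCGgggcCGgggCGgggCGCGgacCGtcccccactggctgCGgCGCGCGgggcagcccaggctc
KLB: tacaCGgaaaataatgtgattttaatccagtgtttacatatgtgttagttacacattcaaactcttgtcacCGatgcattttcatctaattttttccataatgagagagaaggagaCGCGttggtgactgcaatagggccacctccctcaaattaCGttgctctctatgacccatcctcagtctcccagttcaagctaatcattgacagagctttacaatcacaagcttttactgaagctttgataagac

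The FGFR2 window held 42 CG dinucleotides and the FGFR3 window 40, more than 98.6% and 97.8% of 35114 such windows of RefSeq genes. The KLB window held 5, with a GC content of 39.2%, compared with 78.4% for FGFR2 and 86.8% for FGFR3. Across all windows the median was 11 and the quartiles were 3 and 23. The first windows of FGFR4 (24), FGFRL1 (21) and FGF21 (0) fell above the upper quartile, between the median and that quartile, and below the lower quartile, respectively. FGFR2 has 4 further RefSeq starts, with 3 to 7 CG dinucleotides each, and FGFR4 has 1 more with 2, and the deposited gene-level values do not separate starts or splice forms. FGF19 and FGFR1 are named only, and their CG content is not part of this comparison. Both strands were searched for the TATA box (TATAAA, in 10.7% of all windows), the nuclear receptor element (AGGTCA, 12.1%), an ATF4 and CEBP element (TGATGNAAT, 0.889%) and the Grainyhead motif (AACCGGTT, 0.117%). None of the 4 was found in the printed windows, or in the first windows of FGFR4 and FGFRL1, and the FGF21 window held 1 match to TGATGNAAT.

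FGFR4 had the highest level of the genes examined, at an estimated FPKM of 376 ± 18.5 (SD, n = 4) in vehicle. FGFR3 followed at 121 ± 20.9 (SD, n = 4), FGFRL1 at 24.4 ± 2.1 (SD, n = 4), FGFR1 at 20.1 ± 4.0 (SD, n = 4), KLB at 15.4 ± 3.9 (SD, n = 4) and FGFR2 at 2.19 ± 0.72 (SD, n = 4). Over all 8 libraries the log2 levels of FGFR4 (13.15 to 13.33), FGFR3 (11.26 to 12.11) and FGFR2 (5.10 to 7.22) each stood clear of the neighbouring genes. Those of FGFRL1 (9.21 to 9.55) and FGFR1 (8.54 to 9.88) overlapped, as did those of FGFR1 and KLB (8.15 to 9.03), so the place of FGFR1 was not resolved, while every FGFRL1 value lay above every KLB value. The order also rested on the length used: the authors divided by the mean length of all transcripts of a gene, which is 1213 bases for FGFR4 and 6002 for KLB. With the length of the canonical transcript, an alternative chosen after seeing the data, the vehicle level of FGFR4 became 148 and that of FGFR3 67.9, and KLB (15.4) moved above FGFRL1 (13.6) and FGFR1 (8.41).

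**Figure D1:**
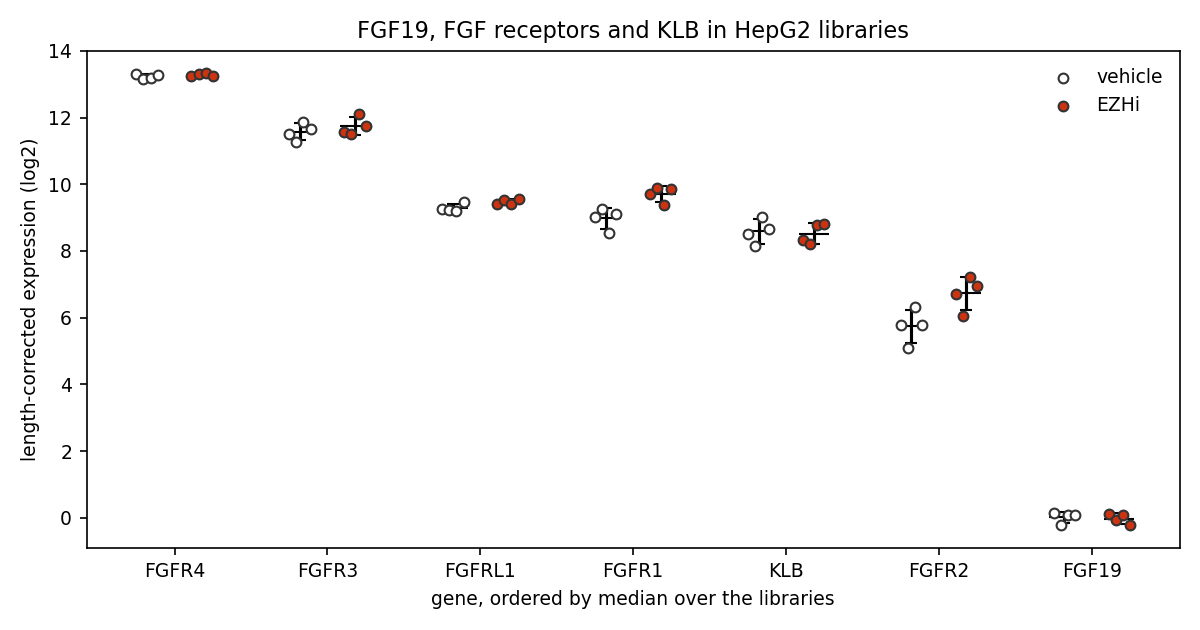
Length-corrected log2 level of each gene in each library, by group, with the group mean as a horizontal line and the SD (n = 4) as the error bar. FGFR4 lies between 13.15 and 13.33 in all 8 libraries, FGFR1 is higher in every EZHi library than in any vehicle library, and FGF19 lies near 0.

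Of the 4 kinase receptors, FGFR4 made up 72.5 ± 2.4% (SD, n = 4) of the summed estimated FPKM in vehicle and 69.4 ± 2.7% (SD, n = 4) in EZHi. The share of FGFR1 was 3.90 ± 0.94% in vehicle and 5.92 ± 1.09% in EZHi (SD, n = 4 each), and that of FGFR2 was 0.418 ± 0.125% and 0.766 ± 0.215% (SD, n = 4 each). FGFR3 held 23.2 ± 3.2% and 23.9 ± 3.4% (SD, n = 4 each). Thus FGFR4 and FGFR3 supplied most receptor transcripts in both groups.

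FGFR1, the receptor through which FGF21 acts best, was the single gene of the 6 tested that was called, and it was higher in EZHi. Its levels in vehicle libraries 1 to 4 were 9.03, 9.27, 8.54 and 9.10. In EZHi they were 9.72, 9.88, 9.39 and 9.86. Every EZHi library lay above every vehicle library, a separation seen for 10.7% of all tested genes, and vehicle replicate 3 and EZHi replicate 3 were the lowest of their groups. FGFR1 (ENSG00000077782, GRCh38 chromosome 8, 38400215 to 38468834, minus strand, protein-coding) rose by 0.73 on the log2 scale (standard error 0.16, limma adjusted p = 0.0153), a 1.65-fold change with a 95% interval of 1.29 to 2.12. Its estimated FPKM was 20.1 ± 4.0 in vehicle and 33.0 ± 4.9 in EZHi (SD, n = 4 each). Without EZHi replicate 4 the log2 fold change was 0.68 and the call was lost (limma adjusted p = 0.0544).

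FGFR1 shares 138 exonic bases with LETM2, a mitochondrial inner membrane protein gene on the opposite strand, and 387 with a long noncoding RNA (ENSG00000255201), and reads were counted without regard to strand. The level of LETM2 was 5.10 ± 0.23 in vehicle and 4.81 ± 0.14 in EZHi (SD, n = 4 each) (limma adjusted p = 0.206), with a mean estimated FPKM of 1.23. The sum of fibroblast and stellate markers given above overlapped narrowly between groups, with 42.1 the highest in vehicle and 41.9 the lowest in EZHi. Of the 3 tested genes of that list 0 were called by limma, with 0 at an unadjusted p under 0.05. All 3 had positive log2 fold changes, with a median of 0.19. Any relation of these markers to FGFR1 was not tested. The genes whose levels were most like that of FGFR1, by Pearson r over the 8 libraries among 13480 protein-coding genes, were MAPK8IP2 (0.991), CPLX1 (0.991) and RAB31 (0.985). MAPK8IP2 encodes a JNK scaffold protein, CPLX1 a regulator of synaptic vesicle fusion and RAB31 a small GTPase of vesicle transport. Since r was taken over both groups, it includes the difference between them, which their log2 fold changes (1.07 for MAPK8IP2 and 0.88 for CPLX1) therefore share by choice.

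FGFR2, whose epithelial splice form binds FGF7 and FGF10, had the widest difference between groups but also the widest spread. In vehicle libraries 1 to 4 its levels were 5.78, 5.10, 6.31 and 5.79, and in EZHi they were 6.72, 6.04, 7.22 and 6.95. The groups overlapped, since EZHi replicate 2 lay below vehicle replicate 3, yet within each replicate number the EZHi library was higher, by 0.91 to 1.16. FGFR2 (ENSG00000066468, chromosome 10, 121478332 to 121598458, minus strand, protein-coding) differed by 0.99 on the log2 scale with a standard error of 0.29 (1.98-fold, 95% interval 1.27 to 3.10), which missed the threshold (limma adjusted p = 0.0522). With the replicate number as a block the same difference had a standard error of 0.086 and was called higher (limma adjusted p = 6.55e-05). The fit was also past the threshold without vehicle replicate 3 (log2 fold change 1.17, limma adjusted p = 0.0258) and without EZHi replicate 2 (1.22, 0.0170). In estimated FPKM the level was 2.19 ± 0.72 (SD, n = 4) and 4.33 ± 1.36 (SD, n = 4), so in both groups FGFR2 was the least abundant of the receptors.

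FGFR3, a receptor for FGF1 and FGF9 among others, was the second most abundant. Its levels were 11.52, 11.26, 11.86 and 11.67 in vehicle libraries 1 to 4 and 11.57, 11.51, 12.11 and 11.76 in EZHi. The groups overlapped over most of their range. FGFR3 (ENSG00000068078, chromosome 4, 1793293 to 1808872, plus strand, protein-coding) differed by 0.16 with a standard error of 0.15 and was not called (95% interval -0.18 to 0.51 on the log2 scale, limma adjusted p = 0.567). With the replicate block this small difference, which ran from 0.051 to 0.25 over the 4 pairs, was called higher (limma adjusted p = 0.0383).

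FGFR4, the receptor of FGF19 in liver, was the steadiest of the genes. Vehicle libraries 1 to 4 had levels of 13.30, 13.15, 13.20 and 13.29, and EZHi libraries 13.25, 13.32, 13.33 and 13.24. The EZHi library was higher in 2 of 4 pairs. FGFR4 (ENSG00000160867, chromosome 5, 177086905 to 177098144, plus strand, protein-coding) differed by 0.05 (standard error 0.06, limma adjusted p = 0.683), and the 95% interval of the fold change, 0.939 to 1.14, bounds the difference these libraries leave room for.

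FGFRL1, the member without a kinase domain, had levels of 9.25, 9.22, 9.21 and 9.46 in vehicle libraries 1 to 4 and of 9.40, 9.53, 9.41 and 9.55 in EZHi. Vehicle replicate 4 was the highest of its group and exceeded EZHi replicates 1 and 3. FGFRL1 (ENSG00000127418, chromosome 4, 1009936 to 1026898, plus strand, protein-coding) differed by 0.19 with a standard error of 0.08 (1.01-fold to 1.28-fold, 95% interval) and was not called (limma adjusted p = 0.155). It was called higher with the replicate block (limma adjusted p = 0.0252) and with libraries centred on the genes whose estimated FPKM reached 10 (log2 fold change 0.28, limma adjusted p = 0.0333).

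KLB, the coreceptor, had levels of 8.52, 8.15, 9.03 and 8.66 in vehicle libraries 1 to 4. In EZHi they were 8.32, 8.21, 8.77 and 8.80. EZHi was higher in 2 of 4 pairs and the groups overlapped throughout. The difference of KLB (ENSG00000134962, chromosome 4, 39406930 to 39451533, plus strand, protein-coding) was -0.07 (standard error 0.20, limma adjusted p = 0.881). Its sign turned to positive with centred libraries and without either vehicle replicate 3, EZHi replicate 1 or EZHi replicate 2. The 95% interval of the fold change, 0.705 to 1.30, was wider than that of FGFR4.

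**Figure D2:**
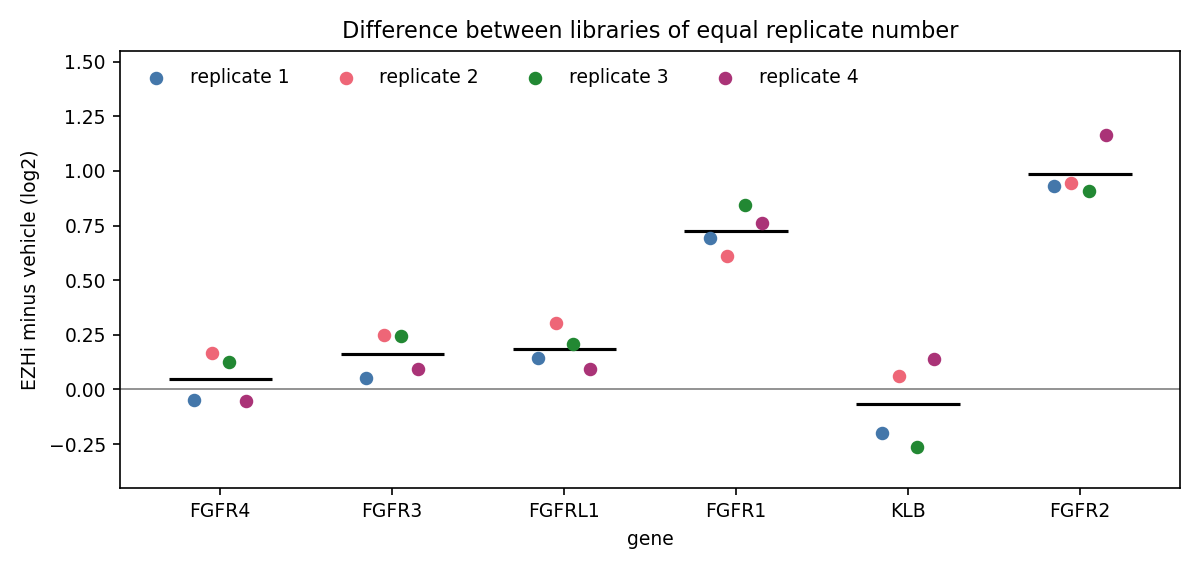
Difference in log2 level, EZHi minus vehicle, between libraries of equal replicate number, with the mean of the 4 as a bar. All 4 differences are above 0 for FGFR3, FGFRL1, FGFR1 and FGFR2, while those of FGFR4 and KLB fall on both sides.

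Over the 6 genes tested, 1 was called higher and 0 lower by limma, against 8.85% and 4.27% of all genes. At an unadjusted p under 0.05, 3 were higher and 0 lower by limma, against 14.7% and 12.0% of all genes. With the replicate block 4 were called higher (FGFR1, FGFR2, FGFR3 and FGFRL1) and 0 lower, in a fit that called 14.9% of all genes higher and 15.1% lower. The median log2 fold change of the 6 was 0.17, and that of all genes tested was -0.0077. In 16 of 17 alternative fits FGFR1 kept its call.

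The ligand FGF19 (ENSG00000162344, chromosome 11, 69698238 to 69704022, minus strand, protein-coding) was near the floor of the values. Its levels were 0.14, -0.22, 0.09 and 0.07 in vehicle libraries 1 to 4 and 0.12, -0.07, 0.08 and -0.23 in EZHi. This corresponds to between 1.56 and 2.01 normalised reads per library and an estimated FPKM of 0.040 and 0.039, under the limit for testing, so no fold change is given. These read numbers were calculated back from the shrunken values and are not counts. Among its tested neighbours, LTO1, 22.8 kb away on the side of lower coordinates, had a log2 difference of -0.18 (limma adjusted p = 0.155), and FADD, 499 kb away on the other side, one of 0.10 (limma adjusted p = 0.673). Beside the FGF21 locus (chromosome 19, 48755524 to 48758333, plus strand), FUT1 lies 134 bases away and differed by -0.33 (limma adjusted p = 0.0666), and BCAT2, at 36.7 kb, differed by 0.18 (limma adjusted p = 0.351). None of these 4 neighbours was called.

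FGFR2, FGFR3 and KLB varied together between replicates. Deviations from the group mean over the 8 libraries correlated between FGFR2 and KLB (Pearson r = 0.927), FGFR3 and KLB (0.910) and FGFR2 and FGFR3 (0.908). FGFR1 ran against them, with r of -0.853 to FGFR3, -0.815 to FGFR2 and -0.745 to KLB. Over all 8 libraries FGFR4 and FGFRL1 did not share this order, with r to those genes of -0.14 to 0.32 for FGFR4 and of -0.16 to 0.46 for FGFRL1. These 8 libraries share their replicate numbers in pairs, so the values are descriptive. In both groups replicate 3 was the highest or next to the highest in FGFR2, FGFR3 and KLB and the lowest in FGFR1, and replicate 2 was the reverse. Without both libraries of replicate 3 (n = 6) the correlations of FGFR2 with KLB, FGFR3 with KLB and FGFR2 with FGFR3 were 0.871, 0.923 and 0.848, and those of FGFR1 with FGFR3, FGFR2 and KLB were -0.460, -0.660 and -0.362. In these 6 libraries FGFRL1 had r of 0.718 to FGFR3, 0.615 to KLB, 0.270 to FGFR2 and 0.071 to FGFR1. FGFR4 had r of 0.503 to FGFR3, 0.238 to KLB, 0.205 to FGFR2 and -0.498 to FGFR1. The values of FGFRL1 thus depended on replicate 3.

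ALB, the albumin gene and a marker of hepatocytes, had levels of 18.01, 17.29, 18.78 and 18.07 in vehicle libraries 1 to 4. In EZHi libraries 1 to 4 its levels were 17.66, 17.20, 18.37 and 17.78. Replicate 3 was thus the highest and replicate 2 the lowest in both groups, as for FGFR2 and FGFR3. This order held in both groups for 7 of the 9 hepatocyte markers. Of the 4 cholangiocyte markers with values, KRT19 had the order of FGFR1, with replicate 2 the highest and replicate 3 the lowest in both groups, SOX9 was highest in replicate 3 of both groups, and EPCAM and KRT7 followed neither. The part of hepatocyte or cholangiocyte state in the receptor levels was not tested.

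**Figure D3:**
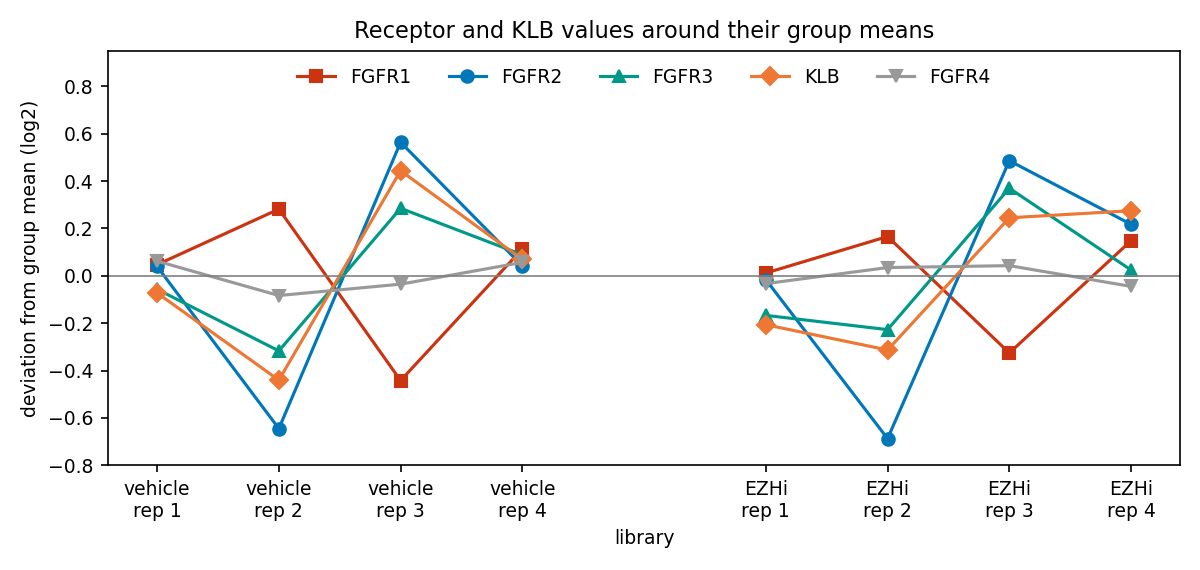
Deviation of FGFR1, FGFR2, FGFR3, FGFR4 and KLB from their group means, in log2 units, in each library of both groups, with lines that only join the points of a gene. FGFR2, FGFR3 and KLB are high in replicate 3 and low in replicate 2, and FGFR1 shows the opposite order.

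Other genes of FGF signalling were counted by role. Of 16 other secreted FGFs, 7 had values and 6 were tested, with 0 called by limma and 0 at an unadjusted p under 0.05. FGF2, the gene under the limit for testing, had levels of -0.003, 0.064, -0.089 and 0.16 in vehicle libraries 1 to 4 and of 1.02, 1.05, 1.24 and 1.15 in EZHi. Its groups did not overlap, at 5.43 to 13.6 normalised reads per library. Among the tested genes, of which FGF2 was not one, 10.7% had every EZHi library above every vehicle library. As for FGF19, no fold change is given under the limit. FGF2 overlaps NUDT6 on the opposite strand, and counting without strand cannot assign reads from shared exonic bases to either gene. Of the genes tested, the most abundant was FGF17, at 4.61 ± 0.31 in vehicle and 4.47 ± 0.22 in EZHi (SD, n = 4 each) (limma adjusted p = 0.655). FGF11, an intracellular FGF homologous factor, and LCTL, a relative of KLB, were the only tested genes of lists of 4 and 2, and differed by 0.04 and 0.06 without a call by limma or an unadjusted p under 0.05.

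The proteins that hold or present FGFs at the cell surface, mainly heparan sulfate proteoglycans, moved in both directions. Of 19 listed, 16 were tested, of which 4 were called higher and 1 lower (8.85% and 4.27% of all genes). The replicate block gave 9 and 3 (14.9% and 15.1% of all genes). The median log2 fold change was 0.25. SDC3, a syndecan, was at 5.76, 6.59, 4.81 and 6.11 in vehicle libraries 1 to 4 and at 7.26, 8.06, 6.95 and 7.44 in EZHi, so the groups did not overlap. It rose by 1.61 (standard error 0.36, limma adjusted p = 0.0154). FLRT3, a membrane protein that binds FGF receptors, rose by 1.13 (limma adjusted p = 0.00854), and its call held in every alternative. ANOS1, a secreted protein that modulates FGFR1, was also counted as higher (log2 fold change 0.90, limma adjusted p = 0.000385), but its estimated FPKM was 0.098 in vehicle and 0.184 in EZHi, so it reached the limit for testing only through the EZHi group, and the log2 fold change was 0.19 with a pseudocount of 0.5. SDC4, the more abundant syndecan of the pair, fell from 10.80 ± 0.19 to 10.24 ± 0.21 (SD, n = 4 each), a log2 fold change of -0.56 (limma adjusted p = 0.0142). Its call was lost without EZHi replicate 4 (limma adjusted p = 0.0509).

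The relay from receptor to ERK was counted next. All 23 listed genes were tested, and 1 was called higher and 1 lower (8.85% and 4.27% of all genes), or 2 and 5 with the replicate block (14.9% and 15.1% of all genes). The median log2 fold change was -0.12. MAP2K1, a kinase that activates ERK, fell by 0.33 (limma adjusted p = 0.00618). MAP2K2, which also activates ERK, was more abundant (mean estimated FPKM 105, against 17.0 for MAP2K1). It was not called (log2 fold change -0.14, limma adjusted p = 0.198). PIK3R1, a regulatory subunit of PI3 kinase, rose by 0.31 (limma adjusted p = 0.0408) but kept this call in 10 of 17 alternatives.

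Feedback inhibitors, which ERK signalling induces and which restrain it in turn, did not move one way. Of 12 listed genes 11 were tested, of which 2 were called higher and 1 lower (8.85% and 4.27% of all genes). The replicate block gave 3 and 5 (14.9% and 15.1% of all genes), and the median log2 fold change was -0.13. IL17RD (Sef), a membrane antagonist of FGF receptors, was at 4.17, 4.67, 4.21 and 3.87 in vehicle libraries 1 to 4 and at 5.61, 5.95, 5.89 and 5.87 in EZHi. It rose by 1.60 (standard error 0.17, limma adjusted p = 0.000198), a 3.04-fold change. DUSP5, a nuclear ERK phosphatase, rose by 1.21 (limma adjusted p = 0.0298), while SPRY1, a Sprouty protein, fell by 0.42 (limma adjusted p = 0.0243). The fall of SPRY1 was called in 10 of 17 alternatives and the rise of DUSP5 in 13, and with quantile normalization or centred libraries no gene of this list was called lower.

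Transcription factors that respond to ERK were called in both directions. Of 9 tested out of 10 listed, 1 was called higher and 1 lower (8.85% and 4.27% of all genes). The replicate block gave 2 and 4 (14.9% and 15.1% of all genes), and the median log2 fold change was -0.19. ETV1 rose by 0.61 from a very low level (limma adjusted p = 0.000453), and by 0.14 with a pseudocount of 0.5. IER2, an immediate early gene, fell by 0.36 (limma adjusted p = 0.0258), a call that held in 10 of 17 alternatives and was lost with centred libraries.

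The genes of bile acid sensing, synthesis and transport that were listed with FGF19 had calls in both directions. Of 15 listed, 10 were tested, with 3 called higher and 1 lower (8.85% and 4.27% of all genes), and a median log2 fold change of 0.25. With the replicate block 4 and 1 were called (14.9% and 15.1% of all genes). SLC51A, a subunit of the bile acid exporter OST, was the gene added (0.56, limma adjusted p = 0.370, and 0.000569 with the block). NR1H4 (FXR), the bile acid receptor that induces FGF19, ran from 7.37 to 8.14 in vehicle and from 8.52 to 9.14 in EZHi, so the groups did not overlap. It rose by 1.06 (standard error 0.18, limma adjusted p = 0.00411). CYP7A1, the rate-limiting enzyme of bile acid synthesis, was at 3.09, 2.70, 4.19 and 3.40 in vehicle and at 4.48, 4.50, 5.54 and 5.44 in EZHi. It rose by 1.65 (standard error 0.35, limma adjusted p = 0.0124), to an estimated FPKM of 1.32 ± 0.51 (SD, n = 4), and by 0.95 with a pseudocount of 0.5. NR5A2 (LRH-1), an activator of CYP7A1, rose by 0.50 (limma adjusted p = 0.00398), and ABCC3, a basolateral exporter of bile acids, fell by 0.58 (limma adjusted p = 0.00410). Their calls held in every alternative that gave a value.

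The regulators of FGF21 and the genes induced with it were also called in both directions. Of 18 genes, all tested, 1 was called higher and 3 lower (8.85% and 4.27% of all genes). The replicate block gave 3 and 5 (14.9% and 15.1% of all genes), and the median log2 fold change was -0.036. PDK4, which inhibits pyruvate dehydrogenase, rose by 0.96 from a low level (limma adjusted p = 0.000493), and by 0.32 with a pseudocount of 0.5. TRIB3 and DDIT3, both of the amino acid and endoplasmic reticulum stress response, fell by 0.56 and 0.39 (limma adjusted p = 0.00215 and 0.0250). CPT1A, which admits fatty acids to mitochondria, fell by 0.45 (limma adjusted p = 0.0224), and its call held in 11 of 17 alternatives and that of DDIT3 in 12. Both were lost with centred libraries and without any of 4 libraries in turn (vehicle replicate 4 and EZHi replicates 1, 3 and 4), and CPT1A also with quantile normalization.

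**Figure D4:**
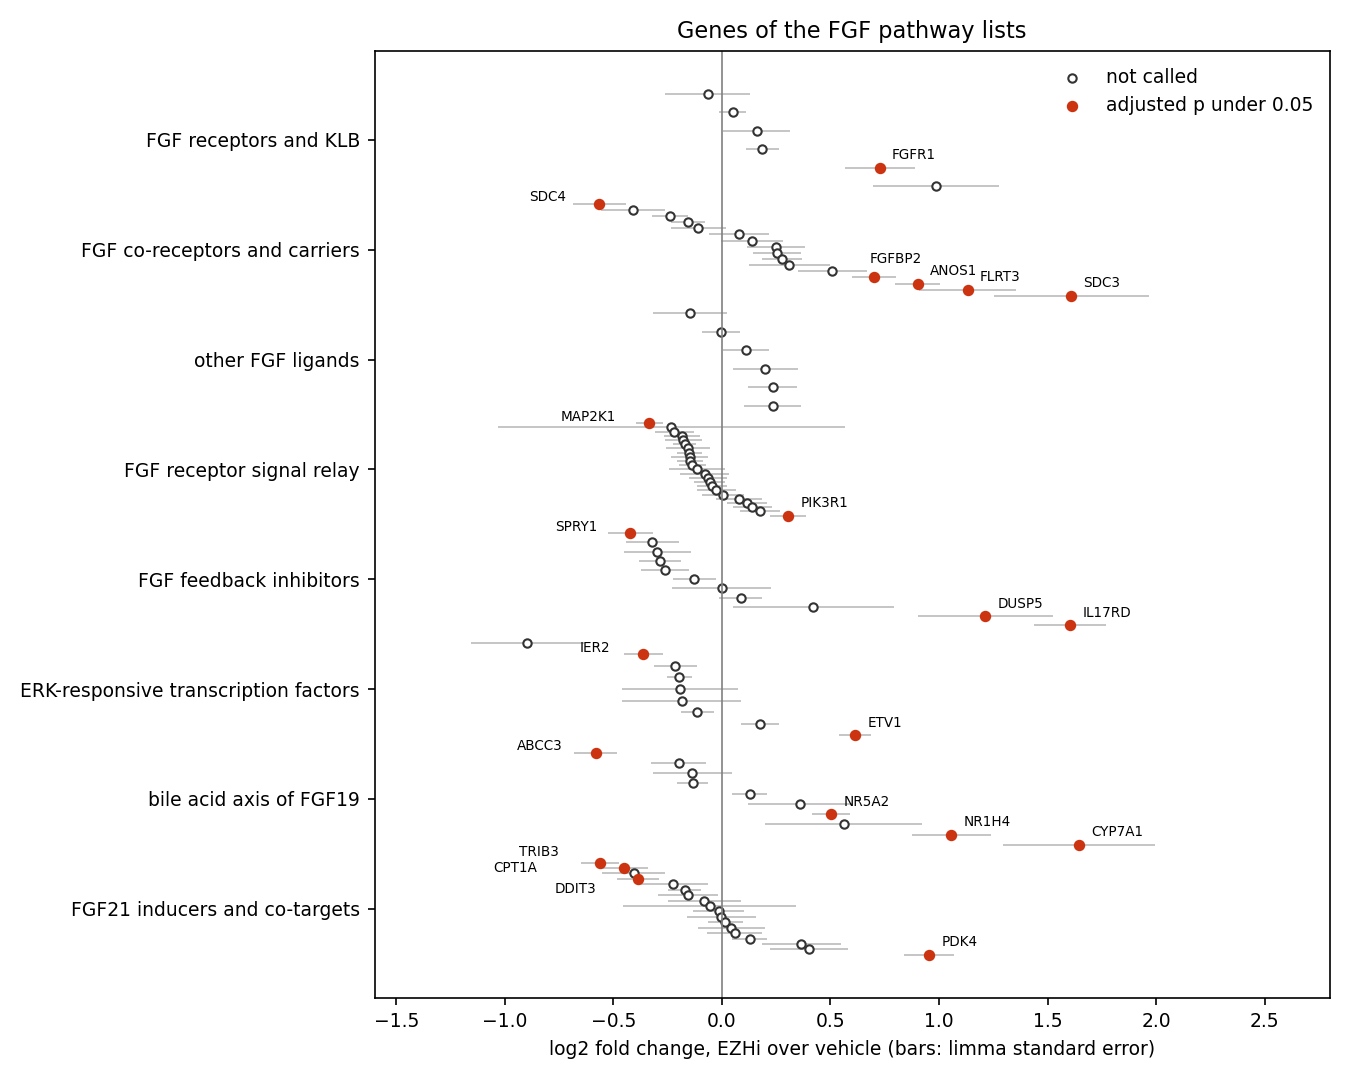
Log2 fold change, EZHi over vehicle, of every tested gene among the FGF receptors and KLB and in 7 lists of FGF signalling, with the limma standard error as a bar and called genes filled and named. FGFR1 is the single filled point among the receptors and KLB, and CYP7A1 (1.65), SDC3 (1.61) and IL17RD (1.60) lie farthest to the right.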

How the data were processed

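Total RNA of HepG2 cells was made into mRNA libraries. Reads were mapped to hg38, counted per exon without regard to strand and normalized by the authors with the regularized log of DESeq2, corrected for mean transcript length (HISAT2 2.2.1, HTSeq 0.9.1 and DESeq2 1.40.2 per the submitters' processing notes). The table is named as FPKM, but its deposited values were log2, from -6.81 to 19.01. The regularized log shrinks differences of genes with few reads. Read depth is unknown, so counting error could not be given.

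Restoring transcript length gave library sums of 24.4 to 27.3, in units of 1e6 normalised reads, and their mean, 25.6, set the scale of the estimated FPKM. The 20153 genes with a mean of at least 0.1 were tested with limma 3.58.1 in R 4.3.3 (group as the only term, trended prior, two-sided, Benjamini-Hochberg adjustment). The fit was tested on simulated data with known changes, in which libraries varied independently and were not paired. It called 70 of 91 genes changed by 1 log2 unit, 109 of 109 changed by 2, and 10 unchanged genes. Tables and figures were made with Python 3.11.15, and loci came from GENCODE 44.

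Titles of the samples gave groups and replicate numbers, and the methods of the study call the replicates independent. Deviations of same-numbered libraries from their group means correlated between 0.216 and 0.634, against -0.582 to 0.199 for other pairs, so the numbers were taken to pair the samples. The main fit, with group as its only term, ignores this pairing, and its standard errors include differences between replicate numbers. The fit with the replicate number as a block is given where it changes the call of a member, and as counts for the lists of FGF signalling.

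The members and lists were chosen with earlier results of these data known. One gene of the lists is not reported here. Named were all members, the called genes of each list with the largest change (up to 3 in each direction, and the most abundant gene where none was called), the 3 genes most like a called member and the tested neighbours of FGF19 and FGF21. ALB, KRT19, SOX9, EPCAM, KRT7, FGB, CDH5, VWF, PECAM1, FGF2, MAP2K2 and SLC51A were named after their values were seen. Alternatives changed the filter, scaling, pseudocount, prior and block or left out a library. The canonical transcript length was an alternative chosen after seeing the data.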

Additional observations from a re-analysis of the deposited data

How the results depend on the processing

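Of 6 genes tested, 3 were called with libraries centred on the genes whose estimated FPKM reached 10 and 4 with the replicate block, and between 0 and 2 when a library was left out (0 without EZHi replicate 4, and 2 without vehicle replicate 3 or EZHi replicate 2). The log2 fold change of FGFR1 ranged from 0.58 to 0.83 over the fits that left out a library. That of FGFR2 ranged from 0.77 to 1.22, and it was past the threshold at 1.08 with centring and at 0.99 with the replicate block. With that block FGFR3 (0.16) and FGFRL1 (0.19) were also called, and FGFRL1 (0.28) with centring, and the block changed no other call among these genes. KLB turned from -0.07 to 0.030 with centring and ranged from -0.21 to 0.083 when a library was left out, without a call. The causes were not tested. FGFR4 was not called in any of 17 alternatives, and FGF19 could be fitted in 1, without a filter. Centring moved the median log2 fold change of all genes from -0.0077 to 0.088, and quantile normalization to -0.060. Of 23 called genes of the lists, 16 were called in every alternative that gave a value. Of the 9 hepatocyte markers, 1 was called (FGB, higher, as were 8.85% of all genes). With the block 4 were called (3 higher and 1 lower, against 14.9% and 15.1% of all genes). Of the cholangiocyte markers SOX9 was called with the block alone (0.19, limma adjusted p = 0.323, and 0.0156 with the block). The lack of read depth and the shrinkage of the regularized log limit what can be said of FGF19 and other genes near the floor.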

Other observations

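Among genes of the lists that missed the threshold, EGR1, an immediate early transcription factor induced by ERK, did not overlap between groups. Its levels were 6.87, 6.86, 7.63 and 7.10 in vehicle libraries 1 to 4 and 5.57, 6.27, 6.84 and 6.19 in EZHi, a log2 difference of -0.90 (limma adjusted p = 0.0506, and 0.000515 with the replicate block). With the replicate block 15.1% of all genes were called lower and 14.9% higher. Other genes of the feedback and ERK lists that were called lower with it, but not without it, were SPRY2 (-0.32, limma adjusted p = 0.123, and 0.0116 with the block), SPRY4 (-0.30, limma adjusted p = 0.261, and 0.00537 with the block), SPRED2 (-0.29, 0.0854 and 0.00250), DUSP6 (-0.26, 0.157 and 0.0236), ETV4 (-0.22, 0.202 and 0.00699) and ETV5 (-0.20, 0.0541 and 0.00976). DUSP4 (0.42, limma adjusted p = 0.531, and 0.0126 with the block) and MYC (0.18, 0.228 and 0.0234) were called higher only with the block. These genes were chosen after their values were seen.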
